A study of Mus musculus with 16 samples.

Results

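The 6 genes considered here encode the core of the cGAS-STING pathway and were chosen by symbol from the deposited gene counts of sorted mouse brain endothelial cells (bECs). Of these 6 genes, 5 have a row under their symbol among the 37003 genes of the table: Cgas, Sting1, Tbk1, Ikbke and Irf3. Trex1 was not analysed here. The 16 libraries crossed 2 genotypes (CTRL and YT-iKO) with 2 kinds of surgery (sham and MCAo), with 4 libraries in each group, where MCAo is occlusion of the middle cerebral artery for 30 min, a model of ischemic stroke, and cells were taken 72 h after surgery. YT-iKO mice carried Pdgfb-iCreER-eGFP with Yap fl/fl and Taz fl/fl alleles, so that tamoxifen removes YAP and TAZ where the Pdgfb promoter is active, chiefly in endothelium. CTRL mice were adult littermates with the same floxed alleles but no Cre transgene, and they received tamoxifen too, so the Cre transgene itself differs between the genotypes along with the deletion. Cells were sorted as DAPI-, CD45- and CD31+, and each library is a pool of mice, with adults of both sexes used in the study. The pool is the unit of replication, and p values measure the spread between pools.

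In this pathway, DNA in the cytosol is bound by cGAS, which makes the cyclic dinucleotide cGAMP. cGAMP binds STING on the endoplasmic reticulum, and STING moves toward the Golgi and recruits the kinases TBK1 and IKKε (encoded by Ikbke), which phosphorylate the transcription factor IRF3 and lead to type I interferon, chemokine and NF-κB target expression. TREX1 is an exonuclease that degrades cytosolic DNA and so limits the pathway. In brain the pathway is known from microglia and also from endothelial cells.

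Positions are given on GRCm38. Cgas (ENSMUSG00000032344) lies at chr9:78430526-78443237, Tbk1 (ENSMUSG00000020115) at chr10:121546455-121586787 and Ikbke (ENSMUSG00000042349) at chr1:131254343-131279606, each on the minus strand. Irf3 (ENSMUSG00000003184) lies at chr7:44997648-45002848 on the plus strand. Each is annotated as protein coding, like Sting1, and the exons of Cgas, Ikbke and Irf3 share 4.87%, 2.48% and 2.56% of their bases with genes on the opposite strand. RefSeq promoters (GRCm38.p6, 250 bases before to 50 after the start) were matched for Cgas, Tbk1, Ikbke and Irf3. The promoters of the 2 kinase genes are shown because TBK1 and IKKε share a role, while their transcripts stood at opposite ends of the members' levels; both are on the minus strand, and capitals mark CpG dinucleotides.
Tbk1, chr10:121586745-121587044: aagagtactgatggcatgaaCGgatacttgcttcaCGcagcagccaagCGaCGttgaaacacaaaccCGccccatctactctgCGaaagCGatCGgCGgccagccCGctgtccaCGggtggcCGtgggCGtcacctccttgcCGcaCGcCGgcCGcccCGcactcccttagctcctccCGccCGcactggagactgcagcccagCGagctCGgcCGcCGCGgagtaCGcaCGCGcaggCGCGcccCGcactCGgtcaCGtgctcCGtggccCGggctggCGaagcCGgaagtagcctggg
Ikbke, chr1:131279514-131279813: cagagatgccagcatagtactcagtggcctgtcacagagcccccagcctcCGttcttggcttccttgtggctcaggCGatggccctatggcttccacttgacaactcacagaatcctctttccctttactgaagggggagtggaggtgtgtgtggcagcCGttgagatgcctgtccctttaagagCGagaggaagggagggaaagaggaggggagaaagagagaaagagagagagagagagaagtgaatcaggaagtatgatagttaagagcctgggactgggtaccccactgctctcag
The Tbk1 window holds 37 CpG in 300 bases with a GC content of 69.0%, and 94.4% of 32807 mouse promoters of the same length hold fewer CpG. The Ikbke window holds 4 CpG with a GC content of 54.0%, and 31.4% of promoters hold fewer. Cgas and Irf3 lie between them with 16 and 18 CpG, against a median of 7 over all promoters. Both strands of the 4 windows were searched for the core of the interferon-stimulated response element (a pair of GAAA runs 2 bases apart) and the TEAD letters GGAATG. None of the 4 windows holds either, while 3.43% and 14.7% of all promoters do; this says only that these letters are not in these windows.

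Library totals ranged from 11418262 to 23074547 counts, and 31085 genes passed the filter on low counts, all 5 members among them. Yap1 and Wwtr1, the deleted genes, were lower in YT-iKO by 1.18 and 1.88 on the log2 scale after sham and by 1.17 and 1.88 after MCAo (edgeR adjusted p 0.0371, 0.00381, 0.0478 and 0.00356), with no overlap between genotypes. The libraries also differed in a low, even coverage of genes that bECs are not known to use. Over 1301 olfactory, vomeronasal and taste receptor genes it was 0.0219 to 0.549 CPM (counts scaled to library size) per kilobase, and it was above 0.3 in 5 libraries: CTRL MCAo 2 and 3, replicate 3 of YT-iKO sham, and replicates 2 and 3 of YT-iKO MCAo. TMM factors over all genes were 0.743 to 1.40, and values are also given with TMM factors taken only from the 9132 genes that averaged 10 CPM or more (0.939 to 1.04), called the abundant-gene scale below. That scale moved the median log2 difference of all genes from 0.11 to 0.30 between genotypes after sham and from 0.07 to 0.21 for MCAo in CTRL.

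Tbk1 and Irf3 were the most abundant members and Ikbke the least. On the abundant-gene scale, the mean over 16 libraries was 16.6 ± 1.65 (SD) CPM per kilobase of exon for Tbk1, 13.9 ± 1.81 for Irf3, 5.17 ± 3.69 for Sting1, 1.56 ± 0.255 for Cgas and 0.677 ± 0.307 for Ikbke. Tbk1 and Irf3 overlapped in range, with Tbk1 the higher in 15 of 16 libraries. Irf3 was above Sting1 in all 16 libraries without overlap. Sting1 and Cgas exchanged places within the sham libraries, where Sting1 was higher in 5 of 8, but in the 8 MCAo libraries Sting1 (4.43 to 10.6 CPM per kilobase) lay above Cgas (1.14 to 2.25) throughout. Cgas was above Ikbke in each of the 16 libraries, although their ranges over libraries overlapped. An even background of that height would make up on average 1.47% of the Tbk1 value and 1.76% of the Irf3 value, but 7.49% for Sting1, 14.8% for Cgas and 33.6% for Ikbke. The mean Tbk1 level per kilobase was 24.5 times that of Ikbke, or 37.3 times with the background taken off.

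**Figure D1:**
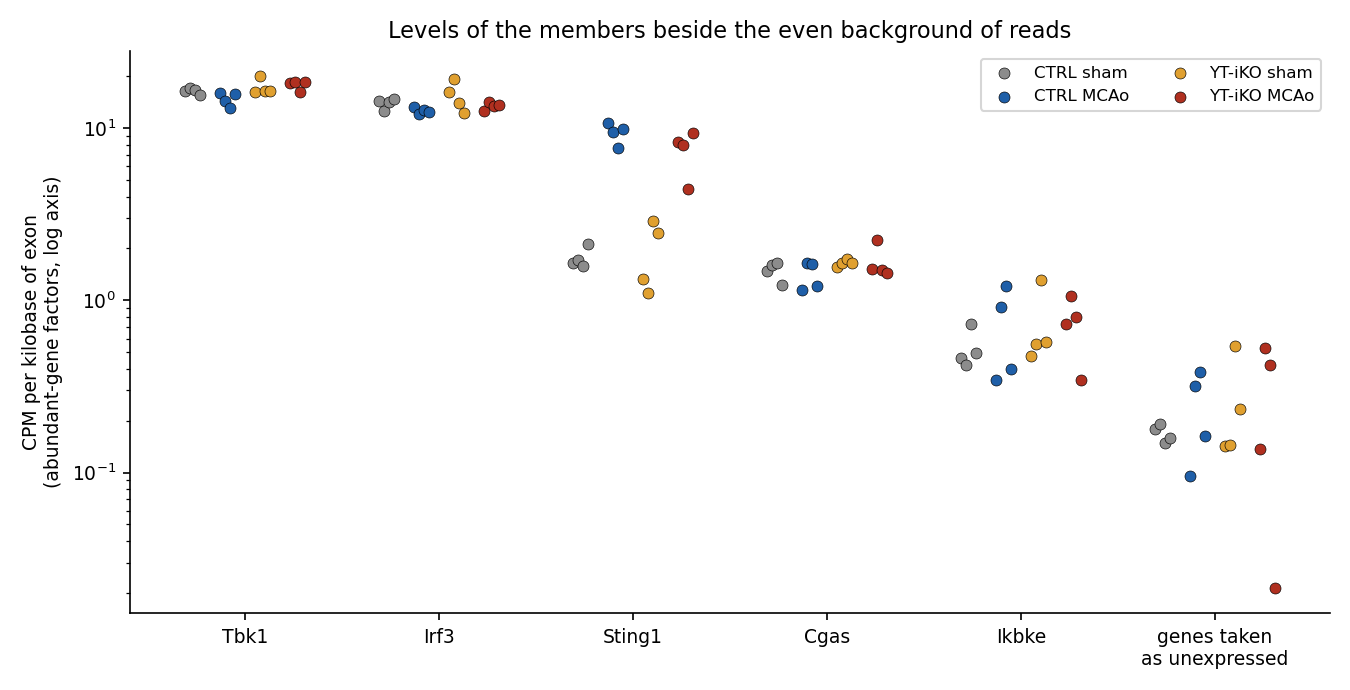
CPM per kilobase of exon (log axis, abundant-gene scale) for the 5 members and for 1301 receptor genes taken as unexpressed; each point is 1 library, coloured by group. Tbk1 and Irf3 sit highest, Sting1 is high in the MCAo libraries, and each Ikbke point is above the background of its own library, which makes up 6.23 to 52.6% of it.

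Cgas, the DNA sensor at the head of the pathway, was detected at a low level. In CTRL its level was 6.60 ± 0.914 CPM after sham and 5.67 ± 0.356 CPM after MCAo (SD, n = 4). In YT-iKO it was 6.56 ± 0.914 CPM after sham and 6.79 ± 1.31 CPM after MCAo, and libraries held 77 to 149 counts. The 4 groups overlapped. Cgas ran from 4.72 to 9.29 CPM on the abundant-gene scale, and over the 16 libraries Pearson's r with the background was 0.51 on that scale and -0.61 on the TMM scale. The log2 difference after MCAo was -0.22 in CTRL (95% CI -0.68 to 0.24) and 0.05 in YT-iKO (-0.41 to 0.50), and YT-iKO differed from CTRL by 0.26 after MCAo (-0.20 to 0.72). None of these passed edgeR's test, with adjusted p of 1.00 for each.

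Sting1 (ENSMUSG00000024349, chr18:35733679-35740554, minus strand), which encodes the adaptor STING, was the member that changed: it rose after MCAo in both genotypes. In CTRL sham libraries Sting1 stood at 4.85, 5.01, 4.74 and 6.11 CPM, from 61 to 94 counts. In CTRL MCAo libraries it stood at 37.6, 22.5, 16.8 and 30.0 CPM, from 247 to 544 counts. Every CTRL MCAo pool was above every CTRL sham pool. In YT-iKO sham libraries it stood at 4.05, 3.26, 5.90 and 6.39 CPM, from 58 to 97 counts. In YT-iKO MCAo libraries it stood at 25.9, 16.3, 9.84 and 34.96 CPM, from 152 to 561 counts. The YT-iKO groups did not overlap either, and their nearest pools were YT-iKO MCAo 3 at 9.84 CPM and YT-iKO sham 4 at 6.39 CPM.

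The rise of Sting1 was 5.14-fold in CTRL (log2 2.36, SE 0.33, 95% CI 1.68 to 3.05, edgeR adjusted p 0.00126) and 4.46-fold in YT-iKO (log2 2.16, SE 0.33, 95% CI 1.48 to 2.84, edgeR adjusted p 0.00295). Sting1 was the 1 member of 5 called by edgeR (adjusted p under 0.1) in each comparison, where 0.216% of the 31085 genes tested were called in CTRL and 0.318% in YT-iKO. DESeq2 also called Sting1 alone in both, where it called 0.714% and 0.859% of genes. limma-voom called 3 members in CTRL and 2 in YT-iKO, where it called 24.2% and 18.1% of genes, and it put the rise of Sting1 at 2.12 and 1.37 (limma-voom adjusted p 1.44e-07 and 0.00805). By fold it ranked 19th of 57 genes called higher in CTRL and 34th of 86 in YT-iKO. The exact two-sided permutation test over the 70 assignments of 4 and 4 pools gave p = 0.0286 in each genotype, the smallest it can give. Groups that do not overlap between sham and MCAo were found for 4.14% of genes in CTRL and 1.28% in YT-iKO. On the abundant-gene scale the rise was 2.42 and 1.98. Without the 5 libraries of highest background it was 2.63 in CTRL and 2.64 in YT-iKO (edgeR adjusted p 1.43e-06 and 3.42e-06), where 3.05% and 6.23% of genes were called. There, and wherever these 5 libraries are left out below, the MCAo pools kept were replicates 1 and 4 of each genotype. With the YT-iKO sham and MCAo libraries fitted alone, the YT-iKO rise was 2.03 and did not pass (edgeR adjusted p 0.112). In bulk samples fewer cells of a type and less RNA per cell cannot be told apart, and counts of amplified cDNA without molecular identifiers are not independent molecules.

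Between genotypes, Sting1 did not pass the test. YT-iKO stood at -0.09 against CTRL after sham on the log2 scale (95% CI -0.77 to 0.59, edgeR adjusted p 0.990) and at -0.29 after MCAo (-0.93 to 0.34, edgeR adjusted p 1.00). The MCAo response of Sting1 in YT-iKO minus that in CTRL was -0.21 (SE 0.45, 95% CI -1.14 to 0.73, edgeR adjusted p 1.00), an interval that runs from a response 0.454 times that of CTRL to a larger one. limma-voom with quality weights called Sting1 lower in YT-iKO after MCAo (-0.91, adjusted p 0.0293), among 0.827% of genes, while edgeR and DESeq2 did not. It put the difference of the Sting1 responses at -0.75 (SE 0.34, limma-voom unadjusted p 0.0355, adjusted p 1.00).

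**Figure D2:**
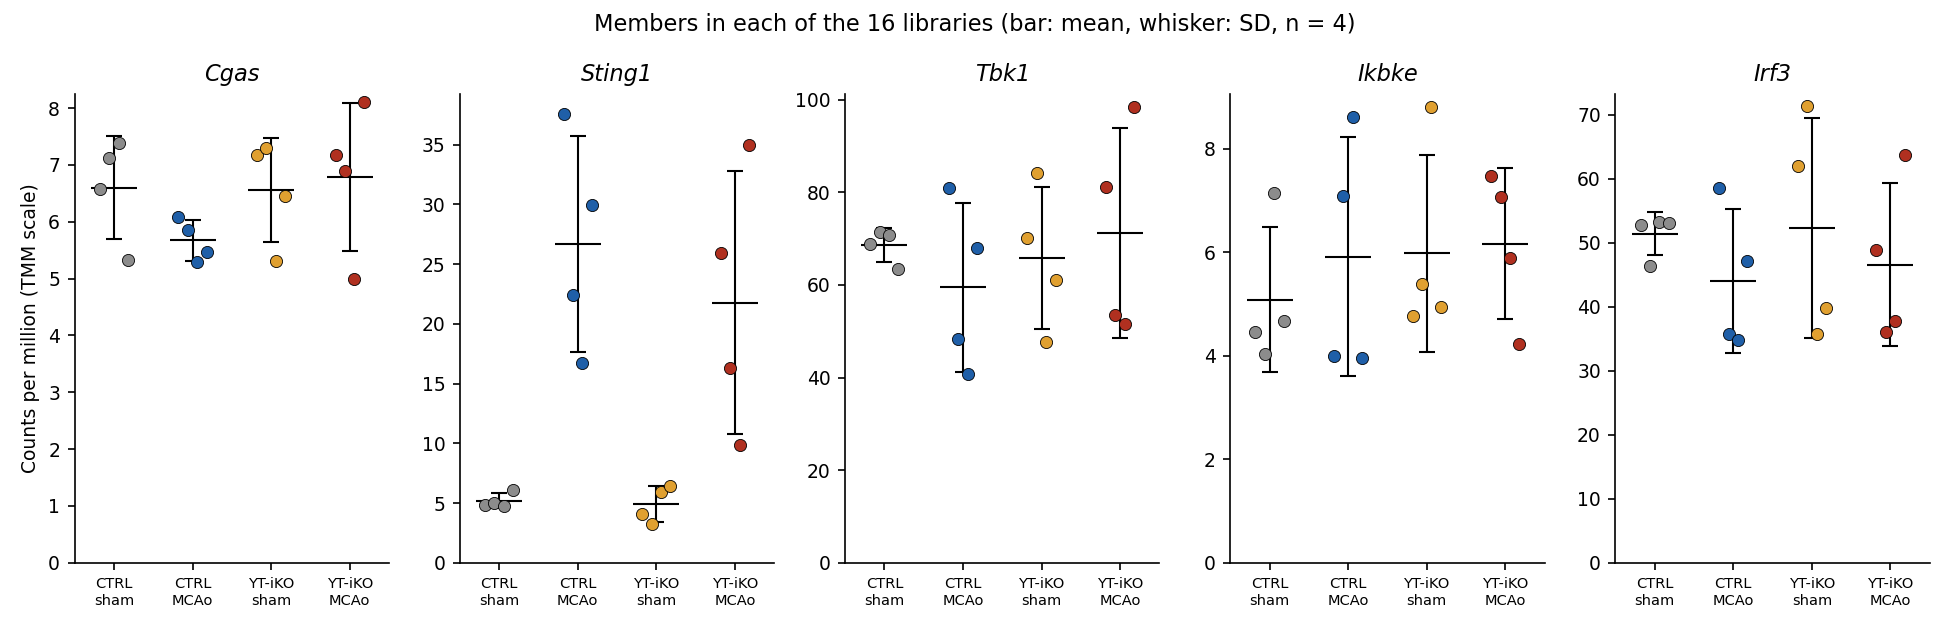
CPM (TMM scale) of Cgas, Sting1, Tbk1, Ikbke and Irf3 in each library, by group; points are pools of mice, the wide bar is the group mean and whiskers the SD (n = 4). Sting1 alone separates MCAo from sham, at 9.84 to 37.6 CPM against 3.26 to 6.39 CPM.

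By edgeR the kinase genes Tbk1 and Ikbke did not pass the test in any comparison, while limma-voom called Tbk1 lower after MCAo in CTRL (-0.48, adjusted p 0.0325), where it called 24.2% of genes. Tbk1, whose product phosphorylates STING and IRF3, lay between 40.8 and 98.5 CPM on the TMM scale and between 51.4 and 78.1 CPM on the abundant-gene scale. On the latter scale Tbk1 stood at 64.4, 66.8, 64.7 and 60.6 CPM in CTRL sham and at 62.8, 56.4, 51.4 and 61.8 CPM in CTRL MCAo. In YT-iKO it stood at 63.3, 78.1, 64.0 and 64.3 CPM after sham and at 71.4, 72.2, 63.5 and 72.2 CPM after MCAo. After MCAo, every YT-iKO pool was thus above every CTRL pool, the nearest being 63.5 and 62.8 CPM. That difference was 0.27 on the log2 scale (SE 0.08, 95% CI 0.09 to 0.44), with an unadjusted p of 0.00487 but an edgeR adjusted p of 0.343, on a scale on which 0.582% of genes were called and 3.21% did not overlap. On the TMM scale the genotypes overlapped after MCAo and the difference was 0.26 (95% CI -0.25 to 0.77). The MCAo differences of Tbk1 were -0.14 in CTRL (95% CI -0.31 to 0.03) and 0.05 in YT-iKO (-0.12 to 0.22) on the abundant-gene scale, and neither was called.

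Ikbke, which encodes IKKε, ranged from 3.97 to 8.81 CPM over 58 to 149 counts, and the groups overlapped in each comparison. Its log2 difference after MCAo was 0.22 in CTRL (95% CI -0.41 to 0.86) and 0.05 in YT-iKO (-0.58 to 0.68). Over the 16 libraries its level went with the even background, with Pearson's r = 0.78 on the abundant-gene scale, where the points share library and depth. The highest Ikbke values on that scale were 11.8 CPM in YT-iKO sham 3, 10.9 CPM in CTRL MCAo 3 and 9.55 CPM in YT-iKO MCAo 2, all libraries with a background above 0.3 CPM per kilobase. The part of the background in its values was not tested further.

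Irf3, the transcription factor that TBK1 phosphorylates, was not called by edgeR in any comparison. On the abundant-gene scale its pools ranged from 41.6 to 66.2 CPM. In CTRL it stood on that scale at 48.0 ± 3.23 CPM after sham and 43.5 ± 1.65 CPM after MCAo (SD, n = 4). In YT-iKO it stood at 53.1 ± 10.5 CPM after sham, the widest spread of the 4 groups, and 46.2 ± 2.32 CPM after MCAo. The groups overlapped in each comparison. The log2 difference after MCAo was -0.14 in CTRL (95% CI -0.37 to 0.08) and -0.20 in YT-iKO (-0.43 to 0.02), with edgeR adjusted p of 0.930 and 0.902. Over the 16 libraries, Pearson's r of Irf3 and Tbk1 with the background was -0.80 and -0.87 on the TMM scale and -0.12 and -0.36 on the abundant-gene scale. limma-voom called Irf3 lower after MCAo in CTRL (-0.45) and in YT-iKO (-0.48), on TMM factors, in comparisons where it called 24.2% and 18.1% of genes.

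Between genotypes, 0 of 5 members were called by edgeR after sham or after MCAo, where 0.0965% and 0.0708% of genes were. By edgeR 0 had an unadjusted p under 0.05, against 670 and 464 of the 31085 genes. DESeq2 called 0 in both, where it called 0.261% and 0.296% of genes. limma-voom called 0 after sham, where 0.46% of genes were called, and 1, Sting1, after MCAo. No member's genotypes were free of overlap on the TMM scale, against 3.85% of genes after sham and 0.981% after MCAo. The difference of the MCAo responses was called for 0 members, and for 0 of the 31085 genes, by edgeR, DESeq2 and limma-voom. At an unadjusted p under 0.05 these tools had 0, 0 and 1 (Sting1) of the members, against 116, 154 and 1368 of all genes.

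**Figure D3:**
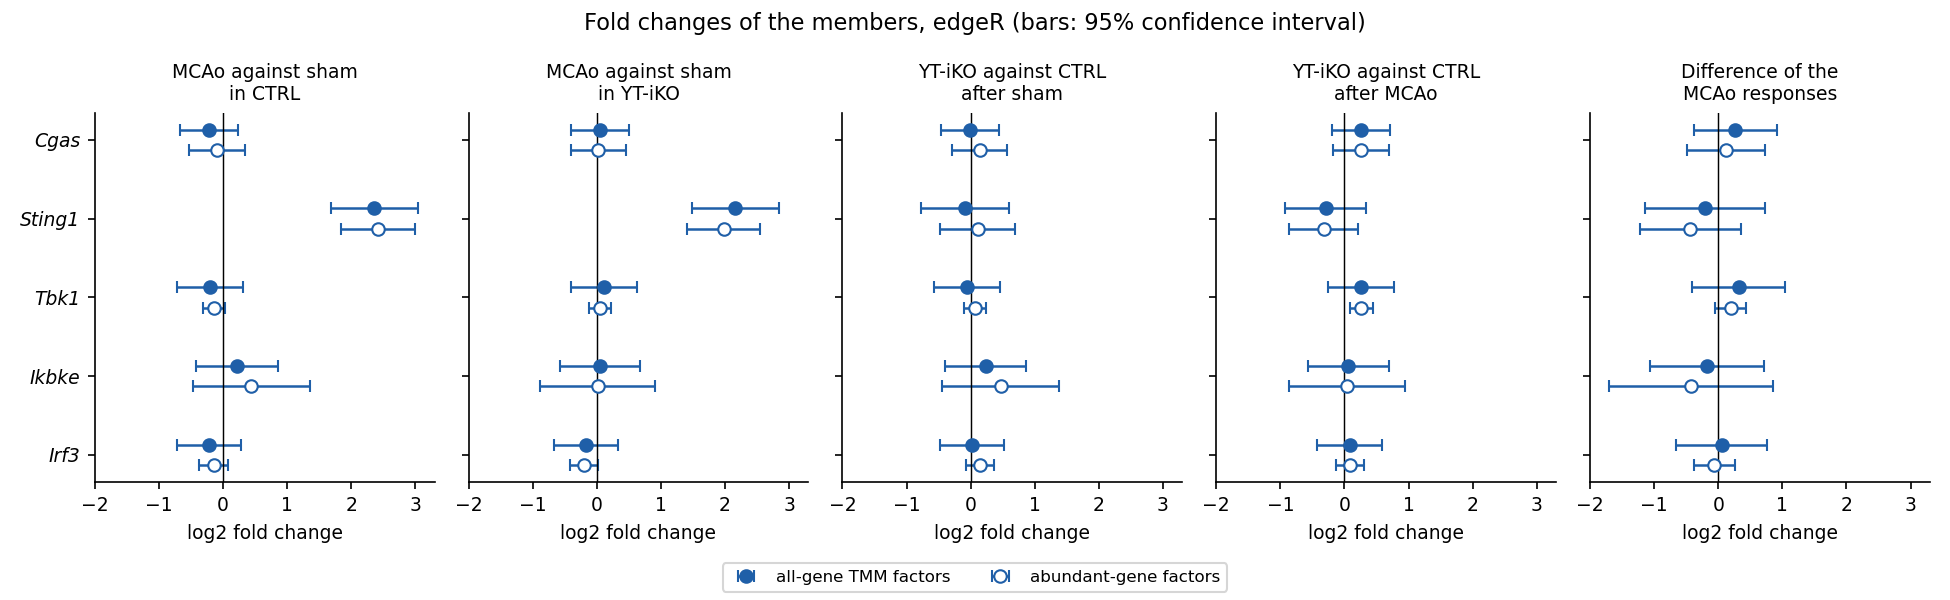
Log2 fold changes of the 5 members in 5 comparisons (edgeR), with 95% confidence intervals; filled points use TMM factors from all genes and open points factors from abundant genes. The Sting1 intervals for MCAo against sham, 1.68 to 3.05 in CTRL and 1.48 to 2.84 in YT-iKO, lie clear of 0 on both scales.

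Beyond the members, 72 genes of 8 lists around the pathway were examined, of which 71 were tested. In CTRL, 0 of the 71 were called after MCAo by edgeR and by DESeq2, which called 0.216% and 0.714% of all genes. At an unadjusted p under 0.05 these tools had 3 and 4 of the 71, against 1089 and 1303 of the 31085 genes. limma-voom called 19 of the 71, 2 of them higher, where it called 24.2% of genes. In YT-iKO edgeR called 1 of 71, Cxcl10, where 0.318% of genes were called, DESeq2 called 2, where it called 0.859%, and limma-voom 15, 6 of them higher, where it called 18.1% of genes. At an unadjusted p under 0.05 edgeR and DESeq2 each had 8 of the 71 in YT-iKO, against 937 and 1079 of the 31085 genes. The median log2 difference over the 71 genes was -0.01 in CTRL and 0.08 in YT-iKO, against 0.07 and -0.02 over all genes tested. The median over the output genes of the pathway was 0.43 in CTRL and 0.33 in YT-iKO on the TMM scale, with 8 and 7 of 9 tested genes positive. On the abundant-gene scale those medians were 0.54 and 0.33, and without the 5 libraries of highest background they were 0.59 and 0.073. For cGAMP transport and breakdown the medians were 0.23 and 0.31 on the TMM scale, and 0.26 and 0.51 without those libraries, so that the order of these lists in YT-iKO depends on them. TMM medians were 0.01 and 0.13 for DNA clearance and other DNA sensors and -0.03 and 0.14 for RNA sensing through TBK1. Medians were -0.06 and 0.04 for STING trafficking and turnover (17 genes), -0.08 and 0.00 for TBK1 adaptors and -0.06 and 0.08 for the IRF and NF-κB arm, and the signs of these 3 and of RNA sensing differ between the scales in at least 1 genotype. In the list of the interferon receptor and ISGF3, 1 of 7 genes was positive in CTRL and 2 of 7 in YT-iKO, the fewest among lists of 5 or more genes. On the abundant-gene scale, 3 of 71 were called in CTRL and 6 in YT-iKO, where 1.78% and 1.72% of genes were. Those in CTRL were Lrrc8c (0.45), a subunit of the volume-regulated channels that carry cGAMP, the NF-κB subunit gene Relb (0.41) and the receptor kinase gene Tyk2 (-0.31). In YT-iKO they were Lrrc8c (0.48), Lrrc8d (0.48), Relb (0.46), Nfkb1 (0.28), Tyk2 (-0.40) and Cxcl10; apart from Cxcl10, these were picked for their call on this scale after their values were seen.

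Cxcl10 encodes a chemokine induced by interferon and used as a readout of STING signaling. It stood at 0.894, 1.48, 1.40 and 1.43 CPM in CTRL after sham and at 2.28, 2.14, 1.22 and 1.83 CPM after MCAo, from 14 to 33 counts. In YT-iKO it stood at 1.01, 1.01, 1.43 and 1.12 CPM after sham and at 2.91, 5.39, 11.9 and 3.68 CPM after MCAo, the latter from 58 to 184 counts. The YT-iKO MCAo pools were above all the others, and the highest, 2 and 3, are both libraries of high background. CTRL MCAo 2 and 3 and YT-iKO sham 3, also of high background, stood at 2.14, 1.22 and 1.43 CPM. The part of the background in the Cxcl10 values was not tested. Cxcl10 rose 5.20-fold after MCAo in YT-iKO (log2 2.38, SE 0.42, edgeR adjusted p 0.0120), while the difference in CTRL was 0.52 (95% CI -0.35 to 1.38, edgeR adjusted p 1.00). The rise was 1.80 without YT-iKO MCAo 3 (edgeR adjusted p 0.0473), lost its call without YT-iKO sham 2 (2.31, adjusted p 0.102) or with the YT-iKO groups fitted alone (2.37, adjusted p 0.318), and was 1.54 without the 5 libraries of highest background. After MCAo, YT-iKO exceeded CTRL by 1.67 (95% CI 0.83 to 2.52, edgeR adjusted p 0.378; DESeq2 adjusted p 0.0263), 1.09 without YT-iKO MCAo 3 and 0.65 without the libraries of high background. This difference was also called by limma-voom. Over all settings run it ranged from 0.65 to 2.285, and the MCAo rise in YT-iKO from 1.54 to 3.06. The difference of the responses was 1.86 (SE 0.59) with an unadjusted p of 0.00434 and an edgeR adjusted p of 1.00. Ifnb1, the interferon that IRF3 induces, had 0 to 12 counts per library and was not tested. Irf7 differed by 0.54 in CTRL (95% CI -0.02 to 1.10) and 0.44 in YT-iKO (-0.12 to 1.01), and neither difference was called.

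**Figure D4:**
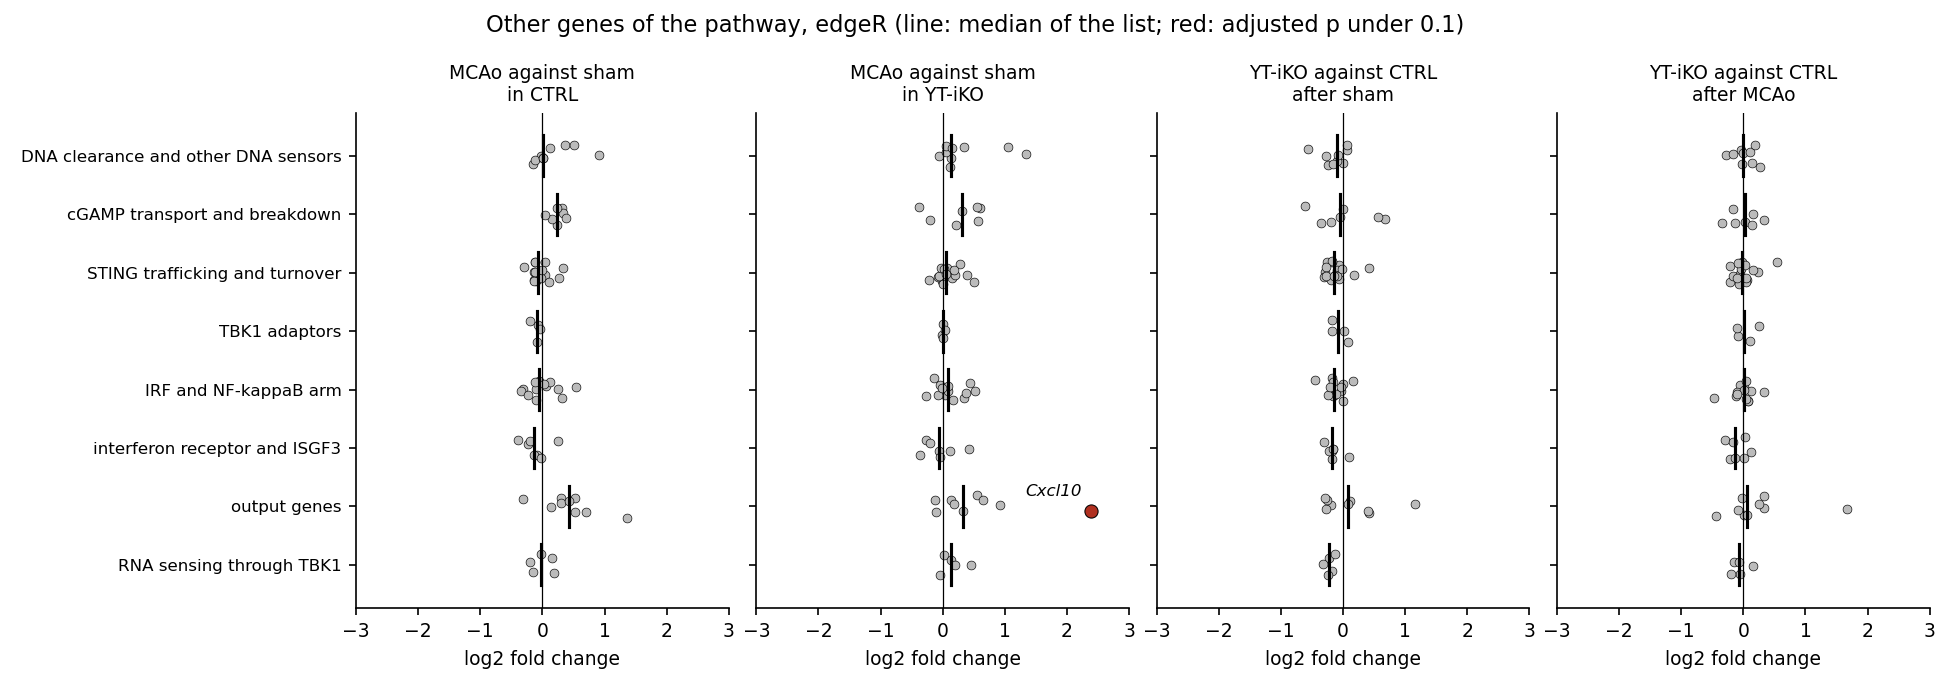
Log2 fold changes (edgeR, TMM scale) of the 71 tested genes in 8 lists around the pathway, for MCAo against sham and YT-iKO against CTRL; each point is a gene, lines are list medians and red marks an adjusted p under 0.1. Cxcl10 (2.38), for MCAo in YT-iKO, is the red point.

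Over the 16 libraries, the genes of at least 10 CPM most like Sting1 were Synpo, an actin-binding protein gene (r = 0.97), Litaf, a gene of late endosomal membranes (r = 0.97), and Vwf, which encodes the endothelial glycoprotein von Willebrand factor (r = 0.96), out of 9132 genes and on the abundant-gene scale. Each rose after MCAo in both genotypes: Synpo by 2.83 and 2.74, Litaf by 2.17 and 2.18 and Vwf by 1.98 and 2.35 on the log2 scale, in CTRL and YT-iKO. These genes were picked for their correlation with Sting1 over the same libraries, so a rise like that of Sting1 largely follows from that choice. Within the 8 MCAo libraries r with Sting1 was 0.80, 0.83 and 0.90, and within the 8 sham libraries 0.71, 0.52 and 0.31. The 3 genes most like Cgas were Bbs4 (0.87), Pop1 (0.86) and Ciapin1 (0.85). Those most like Tbk1 were Irf2 (0.89), Map4k3 (0.87) and Slk (0.86). Those most like Ikbke were D630045J12Rik (0.92), Tyw1 (0.92) and Muc5b (0.92), and those most like Irf3 were Mapk8ip3 (0.93), Firre (0.92) and Cdan1 (0.88). Between members r ran from -0.62 for Sting1 and Irf3 to 0.66 for Cgas and Ikbke. These correlations are descriptions over libraries that share depth, background and group.

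**Figure D5:**
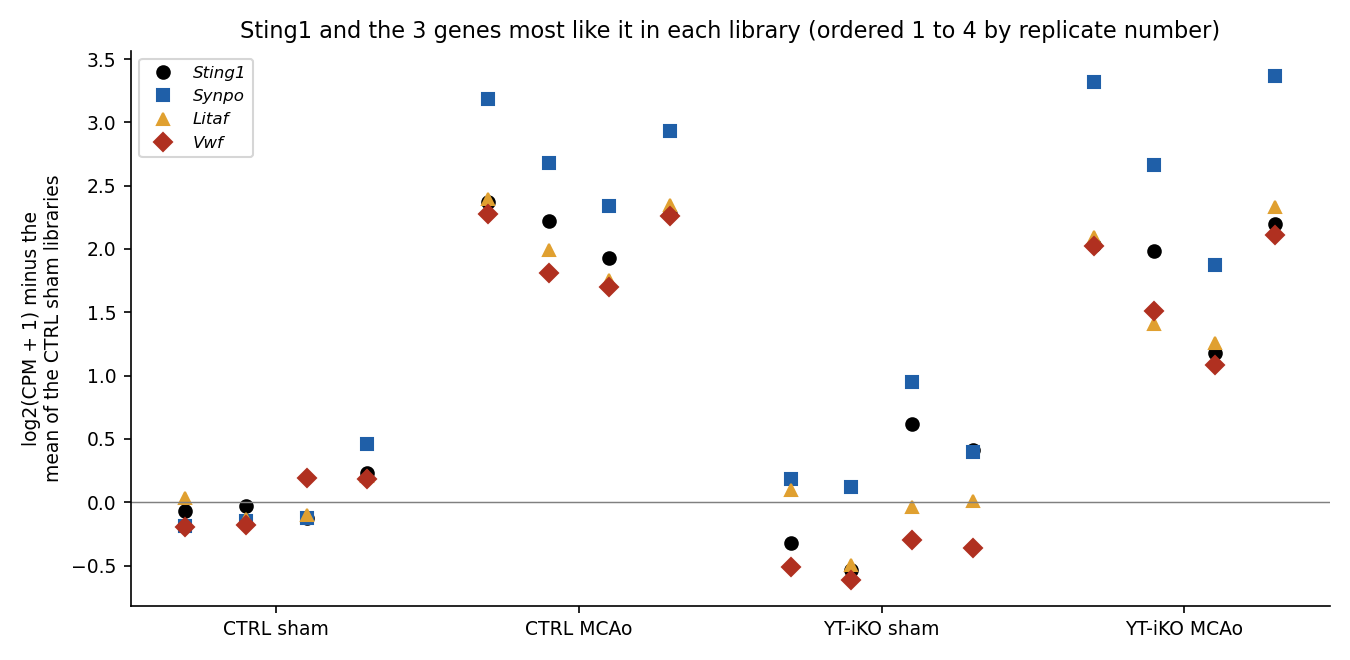
Sting1, Synpo, Litaf and Vwf in each library, as log2(CPM + 1) minus the mean of the CTRL sham libraries (abundant-gene scale), ordered by replicate number in each group. All 4 genes are higher in the MCAo pools than in the sham pools, and YT-iKO MCAo 3 is the lowest MCAo pool for each. Synpo, Litaf and Vwf were picked for their correlation with Sting1 over these libraries.

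Sting1 is also expressed by microglia, macrophages and monocytes, so markers of other cells are given beside it. With TMM factors, edgeR called 0 markers of any of the 10 lists in the 4 comparisons between groups, where it called 0.0708% to 0.318% of genes. On the abundant-gene scale, used for the rest of the marker values, it called 4 markers, named here after their values were seen. The 12 endothelial markers summed in CTRL to 20140 to 21370 CPM after sham and 19130 to 21720 CPM after MCAo. In YT-iKO the sums were 16890 to 19680 CPM after sham and 15580 to 18920 CPM after MCAo. Within each kind of surgery these lay below those of CTRL without overlap. YT-iKO against CTRL was positive for 1 of the 12 after sham and 1 after MCAo (medians -0.20 and -0.19). Among these 12, Slco1a4, a transporter gene of brain endothelium, was lower in YT-iKO after sham (-0.73, edgeR adjusted p 0.0138). It was also lower there after MCAo (-0.80, edgeR adjusted p 0.00468). Slco1a4 alone averaged 2701 CPM in CTRL and 1627 CPM in YT-iKO after sham, and 2340 and 1340 CPM after MCAo, within the sums above. Pecam1, which encodes the sorting marker CD31, was higher after MCAo in YT-iKO (0.42, edgeR adjusted p 0.0949). Differences after MCAo were positive for 5 of the 12 in each genotype, with a median of -0.05 in both. In CTRL, MCAo libraries had higher Dcn, a fibroblast marker (2.22, edgeR adjusted p 0.0868), and higher Gfap, an astrocyte marker (1.26, adjusted p 0.0436). In YT-iKO the Dcn difference was 1.75 and that of Gfap 0.33, and neither was called. Of genes tested, 0.37% were called between genotypes after sham on this scale and 0.582% after MCAo. For MCAo against sham, 1.78% were called in CTRL and 1.72% in YT-iKO.

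The 15 microglia and macrophage markers summed in CTRL to 30.2 to 45.9 CPM after sham and 27.3 to 55.7 CPM after MCAo, and in YT-iKO to 26.95 to 82.8 CPM and 20.3 to 75.2 CPM. The 9 monocyte and neutrophil markers summed in CTRL to 6.33 to 9.32 CPM after sham and 3.64 to 21.1 CPM after MCAo, and in YT-iKO to 7.09 to 26.4 CPM and 1.28 to 22.5 CPM. For the microglia and macrophage list, an even background would be 8.77 to 11.4 CPM in CTRL sham and 5.67 to 22.65 CPM after MCAo. In YT-iKO it would be 8.41 to 32.0 CPM and 1.27 to 31.3 CPM. For the monocyte and neutrophil list it would be 2.83 to 3.67 and 1.83 to 7.3 CPM in CTRL. In YT-iKO that is 2.71 to 10.3 and 0.41 to 10.1 CPM. The part of the background in the marker sums was not tested. The ranges before and after MCAo overlapped for both lists, 0 of 15 and 0 of 9 were called on this scale, and no marker was at 0 in a whole group. Differences after MCAo were positive for 12 of 15 and 9 of 9 markers in CTRL (medians 0.31 and 0.56), and for 6 of 15 and 3 of 9 in YT-iKO (medians -0.12 and -0.23), beside the Sting1 rises of 2.42 and 1.98. Over all genes the median was 0.21 in CTRL and -0.02 in YT-iKO. Pericyte markers, at 558 to 1193 CPM in all, had medians of 0.47 and 0.58, with 6 of 7 positive in each genotype and 0 called. Fibroblast markers, at 15.3 to 46.7 CPM, had medians of 0.90 and 0.64, with 5 and 4 of 5 positive. Astrocyte markers, at 52.1 to 115 CPM, had medians of 0.65 and 0.31, with 4 and 3 of 5 positive. The part of these cells in the Sting1 values was not tested.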

How the data were processed

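RNA of FACS-sorted bECs was made into cDNA libraries with a SMART-Seq Ultra Low Input kit. Per the submitters' processing notes, reads were mapped with STAR 2.7.8a to GRCm38. The authors deposited raw counts per gene, whole numbers with 1 column per library. The counting program and its use of strand are not given in the sources used here. The table lists only genes with 5 or more counts in 3 or more libraries. From these counts edgeR 4.0.16 (R 4.3.3) fitted its quasi-likelihood model with TMM factors and 4 groups, after filterByExpr at its settings of 10 (count) and 15 (total). P values were adjusted by Benjamini-Hochberg over 31085 genes, with an adjusted p under 0.1 as threshold and intervals of 95%. An exact permutation test (two-sided, 70 assignments) was run for each member on log2(CPM + 1). Exon lengths came from GENCODE M21, a later release than the study's, and promoters from RefSeq. Alternatives were DESeq2 1.42.0, limma 3.58.1 (voom), other factors, filters, thresholds and sample sets, a replicate block, each library left out, and the background taken off. Leaving out the 5 libraries of highest background, and the permutation test on the abundant-gene scale, were chosen after seeing the data. On simulated counts for MCAo against sham in CTRL (31085 genes, 200 changed), edgeR recovered 40% of 2-fold and 91% of 4-fold changes, with 7.75% of calls false. For DESeq2 these were 50%, 97% and 23.0%, and for voom 38%, 89% and 7.30%. The changed genes were drawn only from those averaging more than 2 CPM. The simulation held no even background that differed between libraries, so its rates need not hold for these libraries or for lower genes.

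The members and lists were chosen with earlier results of these data known, and the study followed Sting1 and Cxcl10 up from these libraries. Named were the members in each comparison, list genes called by edgeR in any comparison, Cxcl10, Ifnb1 and Irf7, Yap1 and Wwtr1, and the 3 genes most correlated with each member; 1 other gene of this rule is not reported here.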

Additional observations from a re-analysis of the deposited data

Results flagged for a closer look

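Members were checked in each group of 4 libraries on both scales for a library far from the other 3, by the gap to its neighbour over the range of the group against Dixon's limit for 4 values. Of 40 such checks 6 were past the limit, and chance alone passes about 1 in 20. Cgas reached 9.29 CPM on the abundant-gene scale in YT-iKO MCAo 2. Tbk1 reached 78.1 CPM on that scale in YT-iKO sham 2 and was lowest, at 63.5 CPM, in YT-iKO MCAo 3. Ikbke was highest in YT-iKO sham 3, at 8.81 CPM on the TMM scale and 11.8 CPM on the abundant-gene scale. Irf3 was lowest among the CTRL sham libraries in replicate 2, at 46.4 CPM on the TMM scale. The even background was 0.549 CPM per kilobase in YT-iKO MCAo 2, 0.424 in YT-iKO MCAo 3 and 0.543 in YT-iKO sham 3, but 0.149 in YT-iKO sham 2 and 0.195 in CTRL sham 2, and its part in these values was not tested.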

How the results depend on the processing

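The rise of Sting1 after MCAo was called in CTRL under every setting run, and in YT-iKO under all but 1: with only the groups compared it was 2.03 (edgeR adjusted p 0.112), so 0 members were called there. Leaving out each library gave 2.20 to 2.50 in CTRL and 1.83 to 2.40 in YT-iKO, and limma-voom gave 2.12 and 1.37, with a difference of responses of -0.75. limma-voom called 3 members for MCAo in CTRL, 2 in YT-iKO and 1 between genotypes after MCAo.

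Replicate numbers are shared by the groups, but 13 of 24 same-number pairs of libraries had a correlation over 0.1 (median 0.155, against -0.0854 for the 72 other pairs), and 6 of 16 libraries correlated best with their own number. Not every pair was over 0.1, so the numbers were not taken as pairs, and this hint comes from the data, not the design. With a replicate block Sting1 rose by 2.32 and 2.06, and the calls over all genes went from 67 to 119 in CTRL and from 99 to 132 in YT-iKO. With the block 2 pathway-list genes were called for MCAo in YT-iKO.

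Of the 71 list genes, MCAo in CTRL called 3 on the abundant-gene scale, 19 by limma-voom and 5 without the libraries of highest background. MCAo in YT-iKO called 2 by DESeq2, 6 on the abundant-gene scale, 0 with only the groups compared, 15 by limma-voom and 12 without the libraries of highest background, and 0 to 2 with each library left out (0 without YT-iKO sham 2, 2 without YT-iKO sham 3). Without the libraries of highest background the 5 and 12 list genes were all higher. Of all genes, 3.05% and 6.23% were called there, and 91.5% and 80.7% of those calls were higher too. Between genotypes after MCAo, DESeq2 and limma-voom each called 1, and leaving out each library gave 0 to 1 (1 without YT-iKO MCAo 4).

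Calls over all genes moved too. For MCAo in CTRL they were 67 by edgeR (57 higher), 222 by DESeq2, 554 on the abundant-gene scale, 623 with only the groups compared (387 higher), 7538 by limma-voom (3504 higher) and 894 without the libraries of highest background. They also came to 121 when genes had to exceed 1 CPM in 4 or more libraries (the CPM filter), and to 26 to 162 with each library left out. In YT-iKO they were 99, 267, 534 (382 higher), 17, 5626 (2861 higher) and 1826 for the same settings, and 37 to 203 with each library left out. Between genotypes they were 30, 81, 115, 126, 143 and 121 after sham and 22, 92, 181, 32, 257 and 116 after MCAo, with 12 to 43 and 11 to 47 when each library was left out.

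Reversed signs were confined to differences that were not called by edgeR, and their cause was not tested. Between genotypes after sham, the abundant-gene scale gave log2 values of 0.11 for Sting1, 0.14 for Cgas, 0.073 for Tbk1 and 0.0077 for Cxcl10, and its log2(CPM + 1) means differed by 0.042 for Sting1, 0.13 for Cgas, 0.067 for Tbk1 and 0.12 for Irf3. There Cgas was 0.0019 by DESeq2, 0.00014 with RLE factors, 0.019 with the CPM filter, 0.028 with only the groups compared, 0.030 by limma-voom and 0.089 without the libraries of highest background, and Tbk1 was 0.072 without them. Without those libraries, MCAo in CTRL gave 0.051 for Tbk1 and -0.40 for Ikbke, and the difference of responses was 0.0023 for Sting1, 0.55 for Ikbke and -0.11 for Irf3. limma-voom gave -0.048 for Cgas and -0.13 for Ikbke between genotypes after MCAo, -0.31 for Cgas and -0.35 for Tbk1 for MCAo in YT-iKO, and differences of responses of -0.078 for Cgas and -0.026 for Irf3. With no filter, values were -0.015 for Cgas for MCAo in YT-iKO, -0.0067 for Ikbke between genotypes after MCAo and -0.018 for the Irf3 difference of responses. Cgas was -0.025 for MCAo in YT-iKO with only the groups compared, and the Irf3 difference of responses was -0.059 on the abundant-gene scale.

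With each library left out, the value after sham between genotypes ran from -0.25 to 0.064 for Sting1, -0.086 to 0.088 for Cgas, -0.20 to 0.072 for Tbk1, -0.0022 to 0.44 for Ikbke and -0.17 to 0.17 for Irf3. After MCAo it ran from -0.18 to 0.27 for Ikbke and -0.11 to 0.17 for Irf3. For MCAo it ran from -0.018 to 0.46 for Ikbke in CTRL, and in YT-iKO from -0.076 to 0.17 for Cgas, -0.093 to 0.24 for Tbk1 and -0.11 to 0.27 for Ikbke. The difference of responses ran from -0.54 to 0.040 for Sting1, -0.45 to 0.045 for Ikbke and -0.15 to 0.18 for Irf3. Cgas and Ikbke rest on 77 to 149 and 58 to 149 counts per library, which limits what their differences can show.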
